A study of Mus musculus with 26 samples.

Results

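Retinoic acid (RA) was given to R1 cells, an established line of mouse embryonic stem cells (mESCs), at 0.53 µM for 48 h, and 2 libraries of these cells were compared with 2 libraries of R1 cells given DMSO. The 4 libraries were taken by their titles from the 26 of the series, and the response was described across all genes. Both groups were wild type by their labels and grew on gelatin in medium with leukemia inhibitory factor (LIF), so that RA acted while LIF was present. The labels give no duration for DMSO, and the comparison rests on a single cell line. In the series, RA served as 1 of several inductions of a totipotent-like state. A second control, 2 libraries of untreated wild-type R1 cells (ESC), and 3 other groups were used where named: mESCs treated for 4 days with pladienolide B (PlaB), an inhibitor of splicing, at 4 nM, and mESCs labelled Dux KD or SE KO given the same RA treatment. By the study's account, SE KO cells had the super-enhancer of the Tdpoz gene cluster, a large group of enhancers, deleted with CRISPR-Cas9. The genotype field of 1 of its 2 RA libraries reads WT.

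RA is the active derivative of vitamin A. Inside the cell it is carried by the CRABP proteins, binds receptors of the RAR family on DNA as partners of the RXR receptors, and is broken down by CYP26 enzymes, which its own receptors switch on. In embryonic stem cells it is known for switching on the Hox clusters and for leading cells toward endoderm or neural fates, depending on the culture. A few cells in such cultures also turn on genes of the 2-cell embryo (2C genes), among them Dux and the Zscan4 family.

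The reads counted on genes numbered between 18772147 and 20958447 in the 4 libraries. Levels are given as CPM (counts scaled to a common library total), in which the library total is scaled by its TMM factor, and 3 counts, the floor used here, corresponded to 0.167 CPM in DMSO and 0.136 CPM in RA on average over the replicates. A gene was called when edgeR's quasi-likelihood test gave a Benjamini-Hochberg adjusted p under 0.05 and the log2 fold change was 1 or more in either direction. Of 20953 genes tested, 4319 (20.6%) were higher in RA and 2180 (10.4%) were lower. The counts of each gene list below are to be read beside these shares. Raised genes were mostly low in DMSO: 62.6% of them had a mean under 1 CPM there, against 29.4% of genes not called and 10.9% of the lowered genes. A gene that low in DMSO can hardly be called lower, so the contrast with lowered genes is in part built into the call. At least 10 counts were found for 19195 genes over both RA libraries and for 16696 over both DMSO libraries. The median log2 fold change of all tested genes was 0.11, and it became 0.30 with scaling by library size alone, where raised genes made up 76.8% of all calls in place of 66.5%. DMSO and untreated ESC differed in 3401 genes (16.2%), so values against untreated ESC are added where the call or the direction differs, and for several genes where the size does. Nothing in the labels says that replicates were separate cultures. The p-values therefore measure a spread between libraries, estimated over all 13 groups of the series, that may be technical. In bulk RNA, a change in the number of cells of a type and a change in RNA per cell cannot be told apart.

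Genes of the RA pathway rose, with the enzymes that degrade RA and the retinol receptor Stra6 among the largest changes. Of 31 listed genes 30 were tested, and 21 were higher and 1 lower, against 20.6% and 10.4% of all tested genes. Their median log2 fold change was 2.30, or 2.04 with genes near 0 in DMSO set to the floor. Cyp26a1, the main RA-degrading enzyme of the early embryo, had 0.170 and 0.439 CPM in DMSO and 72.6 and 68.6 CPM in RA (log2 fold change 7.82 ± 0.26 SE, edgeR adjusted p = 7.2e-19). The other members of that enzyme family rose too: Cyp26b1 went from 0.170 and 0.219 CPM to 10.6 and 10.2 CPM, and Cyp26c1 from 0.227 and 0.165 CPM to 3.17 and 2.47 CPM. Rarb, the RA receptor that is itself a classical RA target, had 0.114 and 0.274 CPM in DMSO and 10.9 and 9.18 CPM in RA (log2 fold change 5.64 ± 0.42 SE, adjusted p = 7.4e-12). For both genes the RA libraries lay far above both DMSO libraries.

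Rarb and Cyp26a1 are shown with their promoter sequence because, among the listed genes with a window, they alone held a pair of RAR half-sites in the RefSeq window from 250 bases before to 50 bases after the start. A window was found for 22 of the 31 RA pathway genes, 22 of the 39 Hox genes and 26 of the 43 2C genes, and the others were not searched. The search took the half-site AGGTCA and its variants (the form AGTTCA, the form GGGTCA and the form GGTTCA) as direct repeats spaced by 5 bases, on both strands. The sequences are read along the gene, 5′ to 3′, from GRCm38.p6, with the half-sites in capitals. In Rarb (chr14:16575501-16575541, gene on the minus strand) the repeat lies from 53 to 37 bases before the start. In Cyp26a1 (chr19:37697764-37697804, gene on the plus strand) it lies on the opposite strand, from 32 to 16 bases before the start.
Rarb: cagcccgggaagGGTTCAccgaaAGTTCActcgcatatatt
Cyp26a1: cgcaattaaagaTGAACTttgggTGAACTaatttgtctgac

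Such a repeat was found in the windows of 31 of 27025 genes (0.115%) and of 9 of the 13364 tested genes that matched a window by symbol (0.0673%). Among those 9, 4 were higher in RA, 0 lower and 5 not called, beside 2903 higher and 1365 lower of all 13364. Rarb and Cyp26a1, both on the RA pathway list, were among the 4, and no test was made on so few genes. The other raised genes, named after their values were seen, were Prokr2, at 0.170 and 0.110 CPM in DMSO and 4.76 and 5.31 CPM in RA, and Tnfsf13b, which had no counts in DMSO and 0.837 and 0.466 CPM in RA. None of the 22 Hox genes with a window held a repeat spaced by 5, 2 or 1 bases there, which says only that these letters are not in this window.

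None of the other receptors was called higher. Rara had 77.0 and 78.3 CPM in DMSO and 68.1 and 74.2 CPM in RA, and Rarg had 164 and 176 CPM and 127 and 137 CPM; neither reached the fold threshold (log2 fold changes -0.13 and -0.37). Rxrg fell from 3.63 and 3.67 CPM to 2.07 and 1.26 CPM against DMSO, but it was higher in RA than in untreated ESC (log2 fold change 1.60), and without RA replicate 2 it was not called (log2 fold change -0.82). Among carriers, Crabp2, which brings RA to the receptors in the nucleus, rose from 3.23 and 3.29 CPM to 30.8 and 32.4 CPM. Its relative Crabp1 had 17.2 and 18.1 CPM in DMSO and 14.98 and 16.9 CPM in RA and was not called. Stra6, the receptor that takes up retinol, rose from 0.284 and 0.219 CPM to 30.3 and 32.2 CPM. Dhrs3, which turns retinal back to retinol, rose from 3.23 and 3.51 CPM to 27.9 and 31.5 CPM. Rdh10, which works in the direction of synthesis, had 6.98 and 4.99 CPM in DMSO and 7.18 and 5.78 CPM in RA, and the groups overlapped.

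Of 10 known targets of RA, 9 rose. Stra8, named for its stimulation by RA and needed for meiosis, had 18.9 and 20.1 CPM in DMSO and 755 and 814 CPM in RA (log2 fold change 5.33 ± 0.14 SE, adjusted p = 5.5e-21). Zfp703, a transcriptional repressor, rose from 0.794 and 0.494 CPM to 48.4 and 54.2 CPM. The Hox cofactors Meis1 and Meis2 rose: Meis1 went from 0.284 and 0.0548 CPM to 8.99 and 8.66 CPM, and Meis2 from 0.567 and 0.439 CPM to 15.7 and 14.3 CPM. Untreated ESC had more of Meis2, 2.80 and 2.73 CPM, and against that control its log2 fold change was 2.44 in place of 4.89. The exception was Tgm2, a transglutaminase, with 37.5 and 34.9 CPM in DMSO and 45.0 and 49.8 CPM in RA (log2 fold change 0.39). Against untreated ESC, at 6.98 and 7.40 CPM, it was called higher (log2 fold change 2.72).

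**Figure D1:**
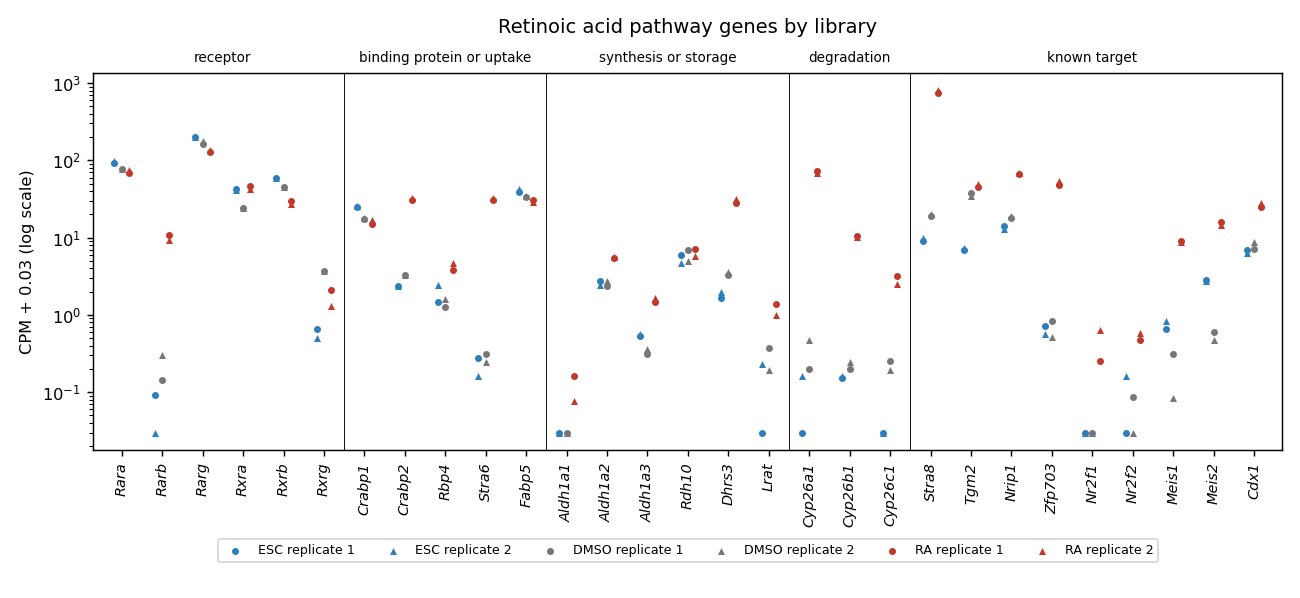
Level of RA pathway genes in the 2 ESC, 2 DMSO and 2 RA libraries, as CPM plus 0.03 on a log axis, grouped by role; a point at the bottom is a library with no counts. The 3 Cyp26 genes, Rarb, Stra6 and Zfp703 were between 2.47 and 72.6 CPM in RA and under 1 CPM in every DMSO and ESC library, while Rara and Rarg lay close in all groups.

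All 4 Hox clusters, which hold the transcription factors that give the body axis its regional identity, were raised. Of the 39 Hox genes 35 were tested, and 34 were higher and 0 lower, with a median log2 fold change of 5.70. In DMSO 23 of the 35 were at or under the floor in both libraries, and with these set to the floor the median was 3.47. In total the 39 genes took 13.2 and 14.6 CPM in DMSO, 19.6 and 19.1 CPM in ESC, and 341 and 347 CPM in RA. The 4 genes that were not tested, Hoxd3, Hoxd10, Hoxd11 and Hoxd12, were at 0.419 CPM or less in every RA library.

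Hoxb1, which gives the fourth hindbrain segment its identity, had no counts in either DMSO library and 32.9 and 36.5 CPM in RA, at least 207-fold higher against the floor of 3 counts per library. Hoxb4, likewise without counts in DMSO, had 33.1 and 35.3 CPM in RA, at least 204-fold higher. As levels in RA per kilobase of exon, Hoxb1 had 14.2 and 15.7 CPM per kb, Hoxa5 14.1 and 12.98 and Hoxb4 12.9 and 13.8 CPM per kb, and the replicates of Hoxa5 and Hoxb4 overlapped. Hoxb9 was lower, with 7.17 and 6.91 CPM per kb.

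The posterior genes, which pattern the trunk and tail, rose as well. All 13 tested members of paralogue groups 9 to 13 were higher, with a median log2 fold change of 4.27, beside 10 of 11 anterior genes with 5.79 and 11 of 11 central genes with 7.03. Many of these genes were at or under the floor in DMSO, where fitted values depend on the prior count. The medians therefore do not rank the 3 classes. Hoxb13, the last gene of its cluster, had 0.170 and 0.219 CPM in DMSO and 10.4 and 10.5 CPM in RA (log2 fold change 5.70 ± 0.39 SE, adjusted p = 1.5e-12). Hoxa10 rose from 0 and 0.219 CPM to 5.73 and 5.54 CPM. Hoxc13 and Hoxb9 were already present in DMSO, at 3.18 and 3.29 CPM and at 2.21 and 2.74 CPM, and reached 7.05 and 6.43 CPM and 18.5 and 17.8 CPM. Hoxd1 alone of the tested genes was not called, with 0.738 and 0.823 CPM in DMSO and 1.23 and 1.54 CPM in RA (log2 fold change 0.82 ± 0.41 SE, adjusted p = 0.092). Against untreated ESC, where 20.1% of all tested genes were higher and 10% lower in RA, 31 Hox genes were higher, Hoxd1 among them (log2 fold change 2.40), and Hoxa11, Hoxc11, Hoxc12 and Hoxc13 were not called.

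The clusters differed in level. The 11 Hoxa genes took 182 and 184 CPM in RA and the 10 Hoxb genes (chr11:96194316-96368256, as the table gives it) took 122 and 128 CPM. The 9 Hoxc genes (chr15:102921103-103036852) took 27.0 and 25.2 CPM and the 9 Hoxd genes (chr2:74668310-74765142) 10.3 and 9.18 CPM. In DMSO the same sums lay between 1.75 and 5.21 CPM in all 4 clusters. Other genes within the 4 spans rose as well: 10 of 14 tested were higher and 0 lower. Among them, named after their values were seen, were Hotairm1, a noncoding RNA of the Hoxa cluster, from 0.397 and 0.493 CPM to 9.25 and 8.34 CPM, and Hoxaas2, from 0.0567 and 0 CPM to 2.95 and 2.98 CPM. Whether reads were counted by strand is not given in the sources used here, so an antisense gene and its Hox partner cannot be told apart. Within 200 kb on either side of the spans, 3 of 19 tested genes were higher and 2 lower, near the 20.6% and 10.4% of all tested genes. Calcoco2, an autophagy receptor gene near Hoxb13 that was also picked after its values were seen, was the largest of these, with 5.16 and 5.05 CPM in DMSO and 223 and 214 CPM in RA (log2 fold change 5.42).

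**Figure D2:**
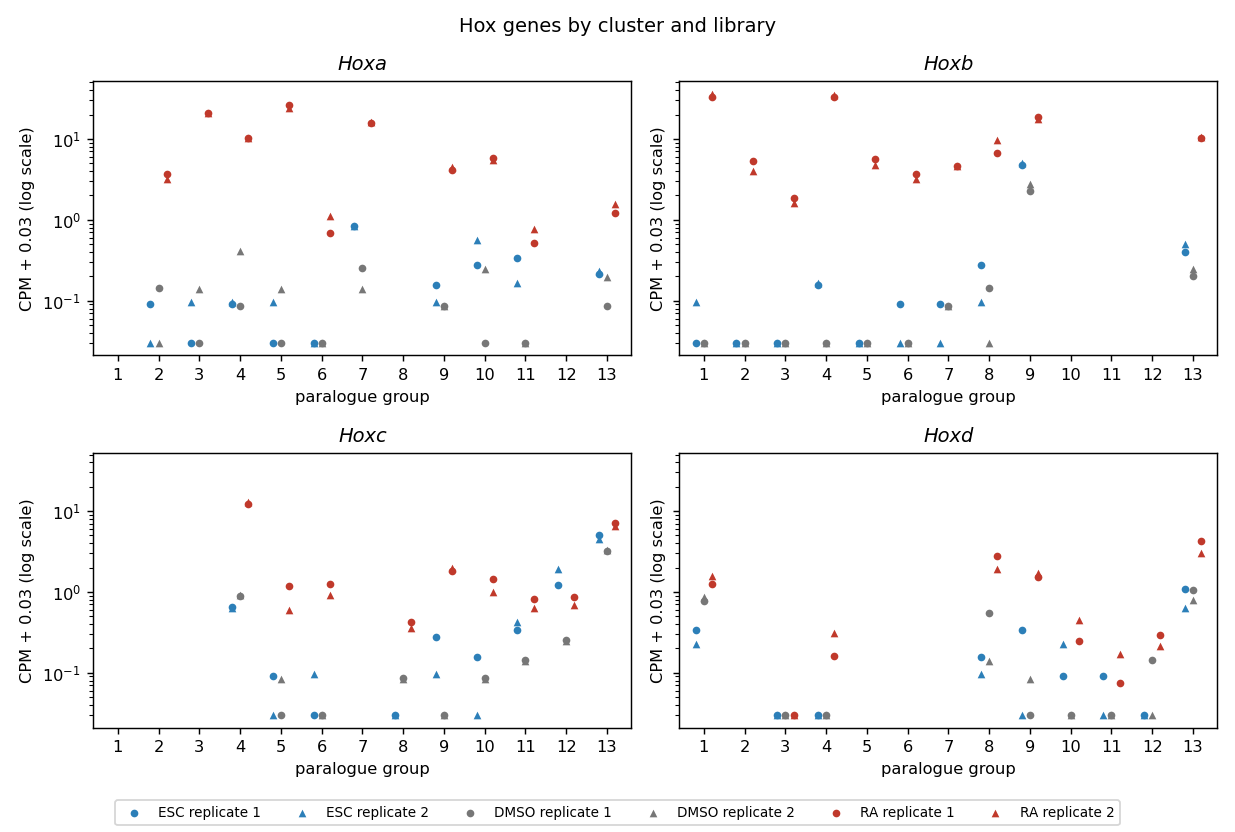
Level of Hox genes by cluster and paralogue group in the ESC, DMSO and RA libraries, as CPM plus 0.03 on a log axis, with points at the bottom for libraries without counts. In Hoxa and Hoxb the RA libraries lie above both controls at every gene shown, with Hoxb4 at 33.1 and 35.3 CPM in RA, while in Hoxc and Hoxd several genes stay near 1 CPM.

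Endoderm genes rose in part. Of 19 tested genes of the extraembryonic endoderm, the layer that lines the blastocyst cavity and the yolk sac, 13 were higher and 2 lower, with a median log2 fold change of 3.12 (2.34 with the floor). Foxa2, a pioneer factor of definitive and visceral endoderm, had no counts in DMSO and 16.5 and 15.5 CPM in RA, at least 95.5-fold higher. Untreated ESC had 0.187 and 0.267 CPM of Foxa2, and against that control its log2 fold change was 6.11, a smaller rise than the bound against DMSO. Gata6, which specifies primitive endoderm, rose from 1.65 and 1.65 CPM to 25.5 and 28.2 CPM, and Gata4 from 2.67 and 1.97 CPM to 10.8 and 12.7 CPM (adjusted p = 3.1e-15 and 1.7e-09). Sox17 rose from 0.284 and 0.110 CPM to 1.63 and 1.86 CPM. Sox7, a factor of parietal endoderm, had 3.01 and 3.02 CPM in DMSO and 3.30 and 4.01 CPM in RA and was not called (log2 fold change 0.28). Against untreated ESC, at 1.06 and 0.733 CPM, Sox7 was higher (log2 fold change 2.01).

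The genes that act downstream of these factors split. The endocytic genes Dab2 and Cubn rose, from 1.99 and 1.10 CPM to 31.7 and 30.7 CPM and from 0.227 and 0.329 CPM to 4.67 and 5.73 CPM, whereas Amn, the partner of Cubn, fell from 2.44 and 2.03 CPM to 0.705 and 0.792 CPM. Amn had the opposite sign against untreated ESC (log2 fold change 0.83, not called). Plat, tissue plasminogen activator, rose from 2.27 and 2.25 CPM to 45.5 and 40.6 CPM. Of the secreted proteins of visceral endoderm, Afp and Ttr had no counts in DMSO and 0.397 CPM or less in both RA libraries. Afp was called higher but not without RA replicate 1, DMSO replicate 1 or DMSO replicate 2, at log2 fold changes of 5.21, 5.53 and 5.55, nor was it called against untreated ESC (2.96), and Ttr was not tested. Apoe fell from 206 and 215 CPM to 62.3 and 67.3 CPM. In the basement membrane, which endoderm lays down, 5 of 12 genes were higher and 0 lower. The type IV collagen pair Col4a1 and Col4a2 rose, Col4a1 from 98.1 and 105 CPM to 508 and 538 CPM and Col4a2 from 38.4 and 43.9 CPM to 256 and 287 CPM. The laminin gene Lamc1 had 492 and 500 CPM in DMSO and 718 and 783 CPM in RA and did not reach the fold threshold (log2 fold change 0.60). Lama1 was called against DMSO (log2 fold change 1.11) and not against untreated ESC (0.05).

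Fibroblast markers were listed to check for other cells in the cultures. Of 10 listed genes 7 were tested, and 4 were higher and 0 lower. All 7 had a positive log2 fold change, with a median of 1.84 (1.62 with the floor). In sum the list took 61.6 and 62.5 CPM in DMSO and 134 and 154 CPM in RA. Col1a2, a fibrillar collagen, went from 0.114 and 0 CPM to 14.8 and 15.4 CPM, a ratio of 270 with an exact counting interval of 74.4 to 2234. The markers Lum and Fap had no counts in any of the 4 libraries, Postn had 0.0466 CPM in 1 RA library, and Dcn and Col3a1 stayed at 0.264 CPM or less. Most of the list sum in RA therefore lay in the remaining listed markers, Thy1, Col1a1, Fbn1 and Pdgfrb, whose single values are not given. The part of such cells in the collagen results was not tested.

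Neural genes moved both ways. Of 40 listed genes 32 were tested, and 11 were higher and 8 lower, with a median log2 fold change of 0.78. Sox3, a factor of neural progenitors, rose from 1.30 and 2.14 CPM to 18.6 and 15.8 CPM (log2 fold change 3.32 ± 0.27 SE, adjusted p = 4.2e-11). Irx3 rose from 0.567 and 0.987 CPM to 7.36 and 7.13 CPM, and Cdh2, N-cadherin, from 3.57 and 3.40 CPM to 13.2 and 13.97 CPM. Pax3 and Six3, factors of the dorsal neural tube and of the forebrain, had no counts in DMSO and 1.01 and 1.35 CPM and 0.925 and 1.40 CPM in RA, at least 7.06-fold and 6.94-fold higher. The defining early neural genes were not called: Pax6 had 1.53 and 1.37 CPM in DMSO and 2.33 and 1.96 CPM in RA, and Sox1 had 5.16 and 4.11 CPM and 3.88 and 4.19 CPM (log2 fold changes 0.56 and -0.20). Against untreated ESC, at 9.22 and 7.46 CPM, Sox1 was lower (log2 fold change -1.05).

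The regional factors of the neural list moved both ways, with 5 of 12 tested genes higher and 4 lower. Otx2 fell from 7.09 and 8.99 CPM to 1.67 and 2.38 CPM, En2 from 6.18 and 4.83 CPM to 2.11 and 2.00 CPM, and Gbx2, which is also a LIF target in mESCs, from 41.5 and 45.5 CPM to 14.9 and 13.7 CPM. All 3 were also lower than in untreated ESC (log2 fold changes -3.81, -2.80 and -2.39). Lhx2, a factor of the forebrain, rose from 0.681 and 1.15 CPM to 3.17 and 3.31 CPM. En1, the relative of En2, rose from 0.227 and 0.329 CPM to 1.37 and 1.91 CPM against DMSO and was not called against untreated ESC (log2 fold change 0.65). Ncam1, Sox11 and Zic5 fell against DMSO by 2.04, 1.61 and 1.97 on the log2 scale, but not against untreated ESC, where their log2 fold changes were 0.16, 0.48 and -0.22. Of the 4 tested proneural or neuronal factors 0 were higher and 1 was lower: Neurod1 fell from 1.42 and 1.65 CPM to 0.0881 and 0.931 CPM (log2 fold change -1.60, adjusted p = 0.0070). Neurog1, Neurog2 and Dcx were at 0.279 CPM or less in RA. Tubb3, a tubulin of neurons, had 105 and 120 CPM in DMSO and 86.5 and 93.5 CPM in RA, and Nes, an intermediate filament of neural progenitors, had 30.7 and 30.9 CPM and 51.3 and 53.0 CPM (log2 fold changes -0.32 and 0.76). Neither was called against DMSO, and against untreated ESC Tubb3 was lower and Nes higher (log2 fold changes -1.71 and 1.82).

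**Figure D3:**
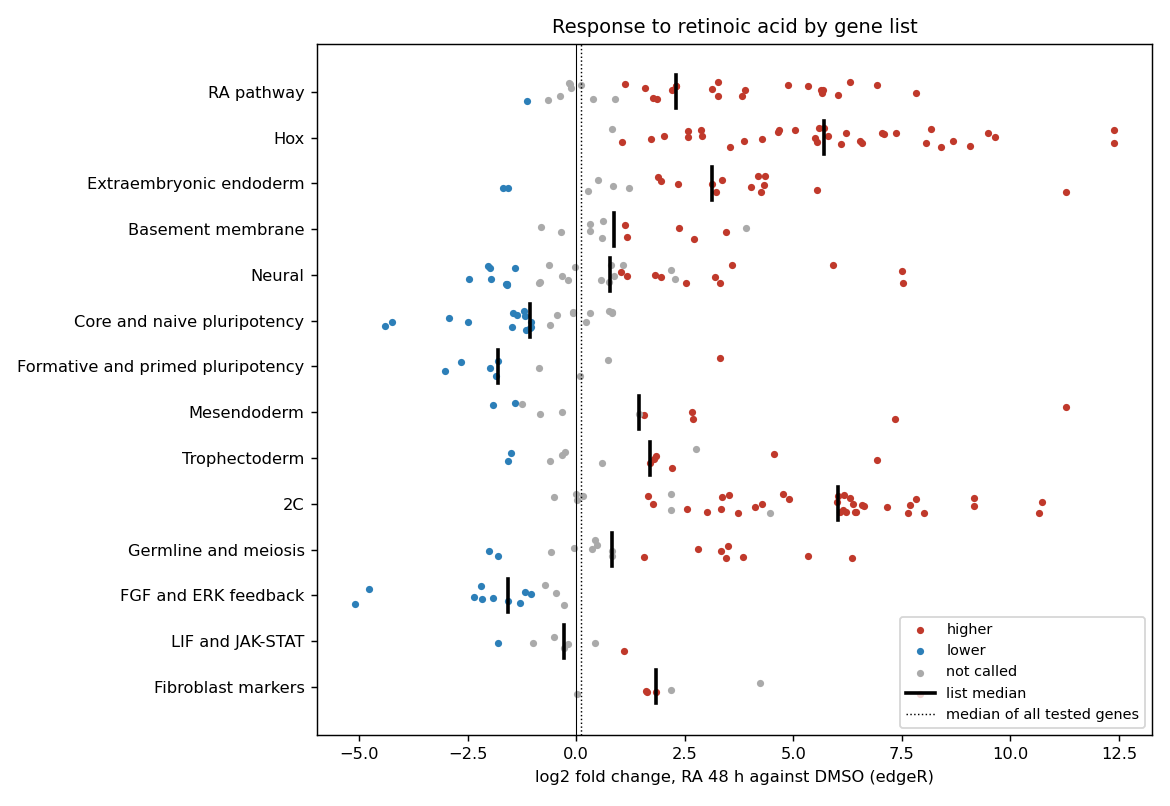
Fitted log2 fold change of RA against DMSO for each tested gene of 14 lists, coloured by call, with a bar at the list median and a dotted line at the median of all tested genes, 0.11. Points beyond about 7 are mostly genes near 0 in DMSO, whose fitted value depends on the prior count; the Hox (5.70) and 2C (6.02) medians lie farthest right and those of formative pluripotency (-1.81) and FGF feedback (-1.57) farthest left.

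Pluripotency genes were reduced in part. Of 22 genes of core and naive pluripotency 13 were lower and 0 higher, with a median log2 fold change of -1.06, and with scaling by library size alone 7 were lower and 2 higher, Tfcp2l1 and Tbx3. Pou5f1, which encodes OCT4, fell from 873 and 931 CPM to 316 and 340 CPM (log2 fold change -1.46 ± 0.10 SE, adjusted p = 1.7e-12), and Sox2 from 594 and 590 CPM to 256 and 268 CPM (-1.18 ± 0.11 SE, adjusted p = 4.6e-10). Nanog, the third core factor, had 888 and 935 CPM in DMSO and 857 and 877 CPM in RA, and its log2 fold change of -0.07 ± 0.07 SE was not called. The steepest falls were in Utf1, a chromatin factor of pluripotent cells, from 411 and 433 CPM to 19.8 and 19.8 CPM, and in Tcl1, an AKT cofactor, from 136 and 140 CPM to 7.27 and 7.13 CPM. Lin28a, an inhibitor of let-7 maturation, fell from 243 and 250 CPM to 46.3 and 41.5 CPM. The RA libraries of these 3 genes lay far below every DMSO library.

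Naive factors were divided. Zfp42, also known as Rex1, fell from 952 and 941 CPM to 353 and 324 CPM, Esrrb from 1122 and 1198 CPM to 503 and 530 CPM, and Klf4 from 512 and 528 CPM to 255 and 247 CPM. By contrast Tfcp2l1 had 641 and 642 CPM in DMSO and 1118 and 1135 CPM in RA, and Tbx3 had 243 and 249 CPM and 424 and 439 CPM. Both lay above DMSO in each library but under the fold threshold (log2 fold changes 0.81 and 0.81). Against untreated ESC 9 of the 22 genes were lower and 0 higher. There Esrrb (-1.18), Zfp42 (-1.34), Utf1 (-4.21), Tcl1 (-2.66) and Lin28a (-3.26) were still called, while Pou5f1 (-0.98), Sox2 (-0.55) and Klf4 (-0.16) were not.

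Markers of the formative and primed states, through which pluripotent cells pass on leaving the naive state, were not raised except 1. Of 9 tested genes 5 were lower and 1, Sox3, was higher. Dnmt3b, a de novo DNA methyltransferase, fell from 111 and 115 CPM to 31.9 and 32.4 CPM, and Foxd3 from 7.09 and 8.01 CPM to 1.15 and 0.699 CPM. Fgf5, the usual marker of primed cells, had no counts in DMSO and 0.0881 and 0.0466 CPM in RA, under the floor. Dnmt3a, the relative of Dnmt3b, had 182 and 186 CPM in DMSO and 303 and 305 CPM in RA (log2 fold change 0.73).

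Genes that report FGF signalling through ERK fell together, with 10 of 13 lower and 0 higher and a median log2 fold change of -1.57. Spry4, a feedback inhibitor of the pathway, fell from 374 and 384 CPM to 13.3 and 14.3 CPM (log2 fold change -4.78 ± 0.10 SE, adjusted p = 1.5e-22). Its relative Spry2 fell from 99.8 and 104 CPM to 19.9 and 19.98 CPM, and Etv4, an ETS factor induced by FGF, from 197 and 199 CPM to 41.0 and 45.1 CPM. Fgf15 fell from 38.3 and 36.5 CPM to 0.793 and 1.40 CPM, a log2 fold change of -5.09 beside -1.98 against untreated ESC, at 4.73 and 3.87 CPM. Fgf4, the FGF that mESCs make themselves, fell from 321 and 311 CPM to 39.8 and 42.3 CPM (log2 fold change -2.94 ± 0.11 SE, adjusted p = 3.3e-18), and from a lower level in untreated ESC, 140 and 131 CPM (log2 fold change -1.72). Against untreated ESC 9 of the 13 were lower; Egr1, an immediate early gene, was called only against DMSO (log2 fold change -2.17, beside -0.24 against ESC).

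On the LIF side 1 of 7 genes was higher and 1 lower, beside 20.6% and 10.4% of all tested genes. Lifr, the LIF receptor, fell from 182 and 178 CPM to 55.8 and 47.4 CPM, and Jak1, the kinase below it, rose from 88.2 and 87.5 CPM to 182 and 191 CPM. Socs3, a target of STAT3, had 212 and 215 CPM in DMSO and 183 and 191 CPM in RA (log2 fold change -0.19) and was not called. Without RA replicate 2, or without DMSO replicate 1, 2 of the 7 genes were lower, the second being Junb.

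**Figure D4:**
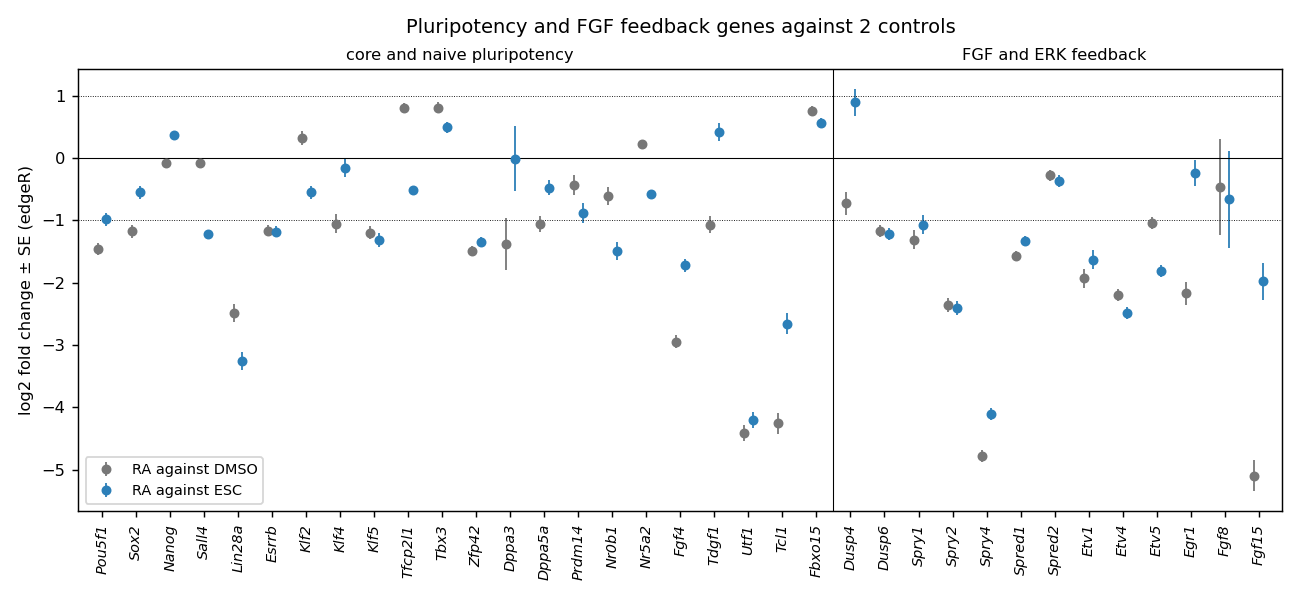
Log2 fold change with its SE for 22 pluripotency and 13 FGF feedback genes, as RA against DMSO in grey and RA against untreated ESC in blue, with dotted lines at the fold threshold of 1. Utf1 and Spry4 lie below -4 against both controls, while Nanog (-0.07 against DMSO) and Klf2 (0.32) lie near 0.

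Among genes of other lineages some were called higher, fewer were called lower and the rest were not called. Of 11 tested genes of mesendoderm, the precursor of mesoderm and gut, 5 were higher and 2 lower, beside 20.6% and 10.4% of all tested genes. Against untreated ESC 4 were higher and 0 lower. T, the defining gene of the primitive streak, was at 0.279 CPM or less in RA, and Eomes had 11.01 and 13.3 CPM in DMSO and 8.94 and 10.3 CPM in RA; neither was called. The Nodal inhibitor Lefty1 rose from 17.7 and 19.0 CPM to 118 and 118 CPM, while its neighbour and relative Lefty2 fell from 118 and 109 CPM to 41.6 and 43.6 CPM. Lefty2 had the opposite sign against untreated ESC (log2 fold change 0.71, not called), and Tbx6 was called lower against DMSO only (log2 fold change -1.92, beside -0.36 against ESC). Without RA replicate 2 Tbx6 was not called, leaving 1 lower gene. Of 13 tested trophectoderm genes, 6 were higher and 2 lower, and against untreated ESC 6 were higher and 0 lower. Among the raised genes were the keratins Krt8 and Krt18. Krt8 went from 10.7 and 8.99 CPM to 31.3 and 36.4 CPM and Krt18 from 6.35 and 6.53 CPM to 20.2 and 21.8 CPM. Cdx2, which founds that lineage, had 0 and 0.0548 CPM in DMSO and 0.308 and 0.140 CPM in RA and was not called (adjusted p = 0.053).

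Some germline genes rose along with Stra8. Of 17 genes of meiosis and the germ line, 8 were higher, 2 lower and 7 not called, with a median log2 fold change of 0.82. Rec8, the meiotic cohesin, rose from 13.3 and 12.9 CPM to 144 and 149 CPM, and Dazl, an RNA-binding protein of germ cells, from 3.97 and 3.40 CPM to 58.4 and 47.2 CPM (adjusted p = 1.0e-19 and 2.5e-16). The testis genes Taf7l and Brdt rose, from 2.16 and 2.91 CPM to 27.7 and 27.5 CPM and from 1.59 and 1.26 CPM to 14.7 and 14.1 CPM. Genes of later meiotic steps did not rise with them: Dmc1, the meiotic recombinase, fell from 30.2 and 26.6 CPM to 8.11 and 8.20 CPM, and Sycp3 had 9.64 and 10.8 CPM in DMSO and 7.14 and 6.61 CPM in RA. In untreated ESC both were lower than in DMSO, and against ESC the log2 fold changes were 0.37 for Dmc1, not called, and 2.31 for Sycp3, called.

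Most 2C genes rose in the same libraries. Of 43 listed genes 40 were tested, and 33 were higher and 0 lower, with a median log2 fold change of 6.02 (4.602 with the floor). The list was drawn up with their response in these libraries known, so the count is a description. Zscan4d, a telomere-protecting zinc finger gene of the 2-cell embryo, had 2.27 and 1.37 CPM in DMSO, 11.96 and 10.1 CPM in ESC, and 280 and 242 CPM in RA. Zscan4c had 1.76 and 1.32 CPM in DMSO, 5.73 and 6.13 CPM in ESC, and 131 and 114 CPM in RA. The Zscan4 and Usp17l copies are near identical, so the reads of any single copy are uncertain. All 5 Usp17l deubiquitinase genes rose; Usp17la went from 0.340 and 0.219 CPM to 166 and 161 CPM (log2 fold change 9.16 ± 0.20 SE, adjusted p = 3.2e-22). Against untreated ESC, at 1.81 and 2.53 CPM, its log2 fold change was 6.24, and that of Zscan4d was 4.56 in place of 7.16.

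Other 2C genes stayed low in RA. Duxf3, the Dux gene of the table, had 1 count over both DMSO libraries and 2.16 and 2.75 CPM in RA, a ratio of 87.7 with an exact counting interval of 15.4 to 3495. Zfp352 had no counts in DMSO and 1.28 and 1.63 CPM in RA, at least 8.69-fold higher. Tdpoz3 and Tdpoz4, at 0.114 and 0.0548 CPM and at 0.0567 and 0 CPM in DMSO, had 0.705 and 0.326 CPM and 0.352 and 0.186 CPM in RA. Both were called against DMSO, but without RA replicate 1 neither was, and their log2 fold changes against untreated ESC were 0.20 and 0.48. Of the 5 Obox genes listed, only Obox6 was called. Against untreated ESC, in which 17 of the 40 genes were higher than in DMSO beside 7.91% of all tested genes, 31 were higher in RA.

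In PlaB the pattern was different. Set against PlaB directly, where 30.0% of all genes were higher and 27.9% lower in RA, 26 of the 40 2C genes were lower in RA and 3 higher. Zscan4d, whose RA values are given above, stood at 4318 CPM on average in PlaB. Trim75 stood at 74.3 CPM on average in PlaB, and it had 6.34 and 6.15 CPM in the 2 RA libraries. The exceptions were Usp17la, Gm11545 and Gpr63, and Usp17la was at 66.7 CPM on average in PlaB. For Hox genes the same comparison gave 33 higher and 0 lower of 35 and for the RA pathway 21 higher and 1 lower of 30. Core and naive pluripotency genes were divided, with 9 of 22 higher in RA and 7 lower: Nanog was at 74.2 CPM and Sox2 at 26.2 CPM on average in PlaB, both under RA, while Zfp42 was at 1252 CPM, above it. Doses and times of the 2 agents differ, and they share the DMSO control.

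**Figure D5:**
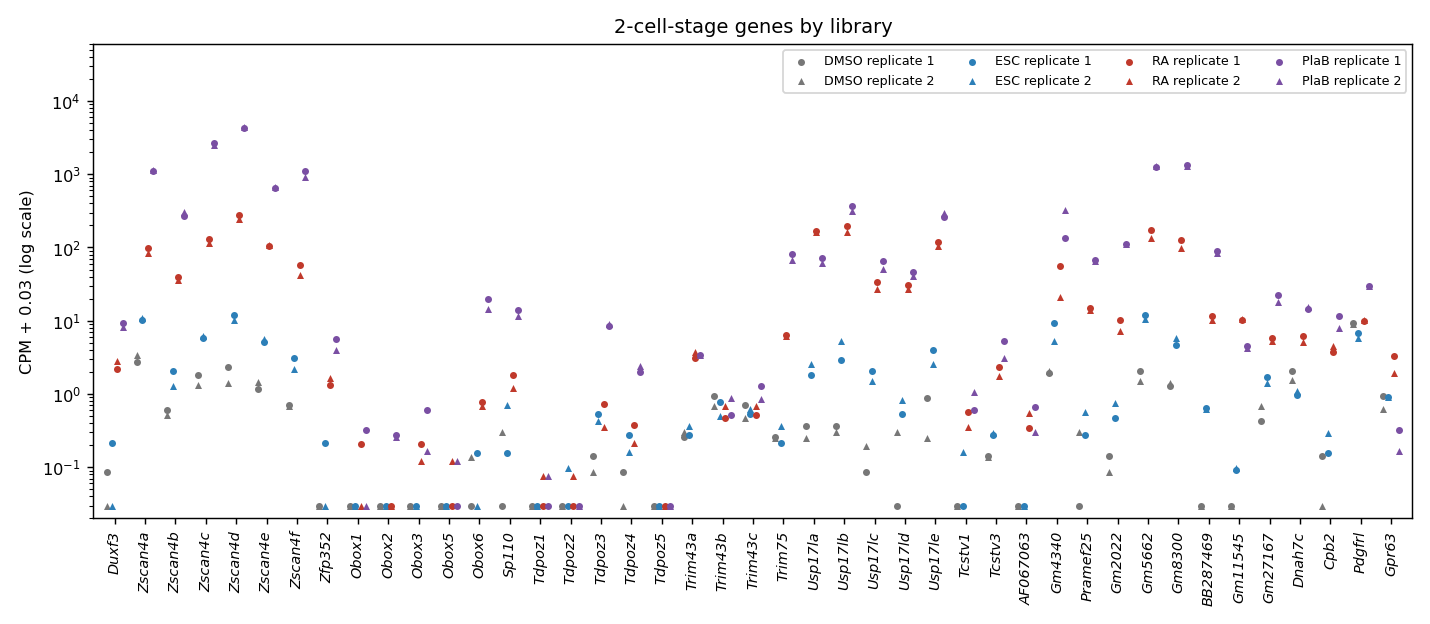
Level of each of the 43 listed 2C genes in the DMSO, ESC, RA and PlaB libraries, as CPM plus 0.03 on a log axis, with points at the bottom for libraries without counts. For most Zscan4 genes the groups stand in the order DMSO, ESC, RA and PlaB, as for Zscan4d at 1.37 to 2.27 CPM in DMSO and 242 to 280 CPM in RA, while Usp17la is higher in RA than in PlaB.

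The RA response could be set beside 2 comparisons that share none of its 4 libraries. Both set RA-treated cells labelled Dux KD or SE KO against untreated wild-type ESC, so effects of RA and of genotype cannot be told apart in them. In Dux KD cells given RA, against untreated ESC, 4252 genes (20.3%) were higher and 1769 (8.44%) lower. Of the genes raised by RA against DMSO 62.1% were also higher there, which was 63.1% of the genes higher there; for lowered genes the shares were 30.4% and 37.4%. By list, 30 of the 34 raised Hox genes, 20 of the 21 raised RA pathway genes, 30 of the 33 raised 2C genes and 10 of the 10 lowered FGF feedback genes were called the same way, but only 4 of the 13 lowered core and naive pluripotency genes. In SE KO cells given RA, against untreated ESC, 4273 genes (20.4%) were higher and 3286 (15.7%) lower. There 47.3% of the raised genes and 31.8% of the lowered genes were called the same way, which was 47.8% and 21.1% of the calls there. The counts were 29 of 34 for Hox genes, 19 of 21 for the RA pathway, 15 of 33 for 2C genes, 8 of 13 for lowered core and naive pluripotency genes and 5 of 10 for lowered FGF feedback genes, while 2 of those 10 were higher there. These counts were the same with SE KO RA replicate 2 alone, whose genotype label fits its title. Opposite calls also occurred: 375 of the 4319 raised genes were lower in SE KO cells given RA. Among them were 2 of the 33 2C genes and 1 of the 34 Hox genes, and the 2C calls depended on the library labelled WT. In Dux KD cells given RA 43 raised genes were lower, 1 of them a Hox gene. A gene called the same way need not have risen as far. In sum the 43 listed 2C genes took 1708 and 1450 CPM in RA and 956 and 960 CPM in Dux KD cells given RA. SE KO cells given RA had 180 and 190 CPM, beside 89.8 and 85.4 CPM in untreated ESC. By the study's account, Dux knockdown impaired the activation of 2C genes under RA. No test between the genotypes was made here.

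Over all genes, the 12 largest rises among called genes whose average log2 CPM was 1 or more, and whose RA and DMSO libraries did not overlap, belonged in part to the lists above, with Hoxb1, Hoxb4, Foxa2, Usp17la, Usp17lb and the 2C gene BB287469 among them. The order was that of the fitted fold changes, which depend on the prior count for genes without counts in DMSO, so genes with a lower bound cannot be ranked against measured folds such as that of Cyp26a1. Sox9, a factor of several progenitor types, had 0.0567 and 0 CPM in DMSO and 39.3 and 39.2 CPM in RA, a ratio of 1408 with an exact counting interval of 252 to 55640. Kdm4dl, at 12.6 and 13.7 CPM, and Krt20, a keratin of gut epithelium, at 4.23 and 5.92 CPM, had no counts in DMSO and were at least 78.4-fold and 30.3-fold higher. Untreated ESC had 0.311 and 0.333 CPM of Kdm4dl, and against that control its log2 fold change was 5.32, a smaller rise than the bound against DMSO. Chrm3, a muscarinic receptor, and Pramef6 also had no counts in DMSO and reached 3.44 and 2.75 CPM and 3.70 and 2.65 CPM, at least 18.5-fold and 19.0-fold higher. In choosing them, 11 genes with predicted names were passed over.

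The 12 largest falls on the same rule included Utf1, Tcl1, Spry4 and Fgf15. Mycn, a MYC family gene, fell from 247 and 242 CPM to 14.1 and 13.2 CPM (log2 fold change -4.16 ± 0.10 SE, adjusted p = 1.6e-21), and against untreated ESC, at 80.9 and 80.5 CPM, its log2 fold change was -2.56. Pou4f2, a POU factor known from retinal neurons, fell from 27.3 and 24.6 CPM to 0.352 and 0.559 CPM. Nphs1 and Kirrel2, a pair of nephrin family adhesion genes, fell from 57.3 and 61.9 CPM to 2.42 and 2.33 CPM and from 17.3 and 19.8 CPM to 0.925 and 1.025 CPM. Tgm3, Hrk and Slc9b2 fell by 4.36, 3.82 and 3.82 on the log2 scale. Tex13b, at 40.5 and 40.7 CPM in DMSO and 2.20 and 2.19 CPM in RA, was at 0.872 and 0.933 CPM in untreated ESC, and against that control it was higher in RA (log2 fold change 1.28). The other 11 were lower than in both controls.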

How the data were processed

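The authors deposited counts, as whole numbers of reads per gene for 55291 genes with no normalization, and the exon length and position of each gene. Per the labels, the libraries were poly(A) RNA, and the submitters' processing notes name FastQC, Trimmomatic, STAR, featureCounts, DESeq2 and the build mm10. The annotation, the strand setting and the handling of multi-mapping reads are not given in the sources used here. Near-identical gene copies are therefore uncertain.

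All 26 libraries in 13 groups of 2 entered 1 edgeR 4.0.16 model (R 4.3.3) with TMM scaling and the default filterByExpr filter, which kept 20953 genes. The model gave a common biological coefficient of variation of 0.0833 with 13 median prior degrees of freedom, so that most of the information on spread came from other groups and genes. P-values from the quasi-likelihood F-test were adjusted over all tested genes. The thresholds were 0.05 for the adjusted p and 1 for the size of the log2 fold change. Fold changes used a prior count of 0.125. For a gene with no counts in DMSO the fold was taken against 3 counts per library and is a lower bound. For 1 to 3 counts in a DMSO library and no more in the other, the ratio of summed counts is given with its exact 95% (Clopper-Pearson) interval. Intervals and floors cover counting error only.

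The 14 gene lists were written by hand, and the members and lists were chosen with earlier results of these data known. Any list member could be named. Values per library go to the defining members and to the up to 6 called members with the largest fold changes, with others given where they show the spread. Over all genes, the 12 largest rises and falls were named, without predicted names. The single values of some genes that met these rules are not reported here, and these genes remain in counts, medians and sums. Names outside these rules are marked as chosen after their values were seen.

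Replicates were compared before use. The Pearson r of log2 CPM between replicates was 0.991 in RA and 0.991 in DMSO, and no pair of libraries was identical or differed by as little as sampling noise (chi-square per degree of freedom 3.63 and 2.29). Replicate numbers did not pair RA with DMSO libraries, since the correlation of deviations from the group means was -0.01. On simulated counts for RA against DMSO, in which 200 genes differed by 2 on the log2 scale, the model recovered 99.5% of them with 3 false calls among 18485 genes tested. The changed genes were drawn from genes well above the floor, and each rose or fell at random. The simulation therefore does not cover genes near the floor, or scaling under a response as wide and one-sided as this one. DESeq2 1.42.0, other scalings and filters, other controls and leaving out each replicate were tried as alternatives. Promoter windows came from RefSeq (GRCm38.p6), matched by symbol.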

Additional observations from a re-analysis of the deposited data

How the results depend on the processing

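With 2 libraries a group, depth limits statements on genes near 3 counts, and the other groups carry most of the estimate of the spread. Of 275 listed or named genes that were tested, 199 kept their call and direction under every alternative that gave them a value, where the fit with only the 4 libraries gave one for 247 and the setting with no fold threshold was not scored by gene. Genes called higher and lower numbered 4419 and 2068 with RLE scaling, 5047 and 1525 with library size alone, 4333 and 2314 without the filter, 4192 and 1984 with DESeq2, and 3747 and 2110 with only the 4 libraries in the fit. They numbered 4276 and 2153 with a replicate block, which moved no listed gene across the threshold. Leaving out 1 library gave 3727 to 4071 higher and 2008 to 2183 lower. With no fold threshold, 6766 were higher and 5581 lower, and the counts that changed most were 5 higher for core and naive pluripotency, 2 higher for formative pluripotency, 3 lower for the RA pathway, 2 lower for the basement membrane, and 2 higher and 4 lower for LIF. With library size alone, core and naive pluripotency had 7 lower and 2 higher, and the RA pathway 0 lower. Without the filter LIF had 2 lower, and the mesendoderm median turned to -0.15, with more genes tested. With untreated ESC as the control, mesendoderm and trophectoderm had 0 lower and the germ line 1 lower; with both controls averaged, endoderm, trophectoderm and the germ line had 1 lower, mesendoderm and the RA pathway 0 lower, and the LIF median was 0.0064. Leaving out 1 library gave 0 to 1 lower RA pathway genes, 1 to 2 lower mesendoderm genes and 1 to 2 lower LIF genes, and a mesendoderm median from -0.060, without RA replicate 2, to 0.69.

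The choice of control turned the direction of single genes. Against untreated ESC the log2 fold changes were 1.60 for Rxrg, -1.02 for Hoxc12, -1.44 for Hnf4a, 0.83 for Amn, -0.013 for Fst, -1.34 for Sox21, 0.48 for Sox11, 1.64 for Onecut2, 0.16 for Ncam1, 0.42 for Tdgf1, 0.71 for Lefty2, 2.31 for Sycp3, 0.37 for Dmc1 and 1.28 for Tex13b. With both controls averaged they were 0.24 for Rxrg and -0.090 for Sox21. The cause of these differences between controls was not tested.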
